A study of Rattus norvegicus with 12 samples.

Results

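The TNF-a response of rat nucleus pulposus (NP) cells was compared between cells with a knockdown of TonEBP and cells with a control vector, gene by gene. For each gene the interaction is the log2 effect of TNF-a in shTon cells minus that in PLKO cells, (shTon_TNF - shTon_CTR) - (PLKO_TNF - PLKO_CTR). A negative value means that a gene was raised less, or lowered more, when TonEBP was knocked down. All 12 of the 12 RNA-seq libraries of the series enter this contrast, and 12310 of the 12899 genes common to the 3 deposited tables had a mean of at least 10 normalised reads and were tested. No gene was chosen by its measured value for the contrast itself.

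The 4 groups of 3 libraries were shTon_TNF (lentiviral shRNA against TonEBP, 50 ng/mL TNF-a for 24 h), shTon_CTR (the same shRNA, untreated), PLKO_TNF (control shRNA vector, the same TNF-a) and PLKO_CTR (control vector, untreated). All cells were primary cells grown out of explanted disc tissue of Wistar rats in medium with serum, and all were transduced. Each group has a library of set 1, set 2 and set 3, but nothing in the labels ties a set to separate rats or cultures, and the spread behind each p-value may be technical. The knockdown rests on 1 shRNA label, with no second hairpin among the groups, and its target sequence, like the age and number of rats, was not used here.

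TonEBP, encoded by Nfat5, is a Rel-family transcription factor best known for switching on osmolyte transporters and chaperones when osmolarity rises, as it does in the proteoglycan-rich core of the disc. TNF-a is an inflammatory cytokine of degenerating discs that acts largely through NF-kB, another Rel-family factor, to switch on chemokines, cytokines and matrix proteases. An interaction on the log2 scale asks whether the fold response to TNF-a differs with the knockdown. A gene that the knockdown lowers by the same fold in treated and untreated cells has an interaction of 0, even though it gains fewer reads with TNF-a.

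Depth ran from 7160042 to 18645538 gene-assigned reads per library. Skeletal muscle markers separated the sets, with a summed level of 58117 to 132424 normalised reads in set 1, 22942 to 41402 in set 2 and 349 to 403 in set 3, and the set was a block in the fit. Fewer cells of a type and less RNA per cell cannot be told apart in such bulk samples. Of 20 NP and notochord markers, 11 were tested, among them Krt8, Pax1 and Foxf1, while the notochord gene T (brachyury), Krt18, Krt19, Shh and Noto, and the matrix genes Acan and Col2a1 for which NP cells are known, were not among the genes tested. Of 18 macrophage and leukocyte markers only Cd68 and Cd14 were tested.

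Nfat5 (ENSRNOG00000011879), the gene that the shRNA targets, had 1695, 499.7 and 232 normalised reads in sets 1 to 3 of shTon_TNF and 458, 457 and 288 in shTon_CTR, against 642, 1092 and 483 in PLKO_TNF and 685, 1363 and 1818 in PLKO_CTR. Untreated, the knockdown library was the lower of its pair in each set, and with TNF-a it was so in sets 2 and 3. In set 1 the library labelled shTon_TNF had the second highest Nfat5 level of all 12, against its label. Every interaction below takes that library as labelled, and values without set 1 are given for the genes and lists described. The average knockdown effect on Nfat5 was -0.93 (adjusted p = 0.158 in limma), and did not pass. It was -0.26 with TNF-a (adjusted p = 0.826) and -1.60 without (adjusted p = 0.216). The authors' deposited tables list -0.032 with TNF-a (adjusted p = 0.987) and -1.19 without (adjusted p = 4.57e-05). The TNF-a effect on Nfat5 itself was 1.89, 0.13 and -0.31 (log2) in sets 1 to 3 of shTon cells and -0.094, -0.32 and -1.91 in PLKO cells, so that no direction was shared by all sets of shTon cells, while all 3 were below 0 in PLKO cells. The interaction of Nfat5 was 1.34 (SE 0.82, 95% interval -0.47 to 3.15, unadjusted p = 0.130 in limma), with 1.98, 0.45 and 1.60 by set and 1.02 without set 1.

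No gene passed the test for an interaction. In limma with the set as a block, 0 of 12310 genes (0%) had an adjusted p under 0.05 in either direction, and the smallest adjusted p was 0.999. At an unadjusted p under 0.05 there were 126 genes above 0 (1.02%) and 93 below (0.755%). A calibrated test would place a share of about 0.05 of genes there if no gene had an interaction. Both counts together fall short of that share, so the interaction p-values read as conservative. The reason was not tested. On the recovered reads, edgeR and DESeq2 with the same block also passed 0 genes, with 248 and 271 at an unadjusted p under 0.05. In the limma fit the average TNF-a effect over both vectors passed for 1846 genes, 930 higher (7.55% of genes) and 916 lower (7.44%). The average knockdown effect over both treatments passed for 1661, 785 higher (6.38%) and 876 lower (7.12%). Both average counts rest on the block and on set 2: they were 167 and 0 without the block and 162 and 0 without set 2. Without set 3 they were 1210 and 590. Leaving out 1 library at a time gave 975 (without PLKO_CTR of set 2) to 2396 (without shTon_TNF of set 1) genes for TNF-a and 827 (without shTon_CTR of set 3) to 1911 (without shTon_TNF of set 1) for the knockdown, and 0 for the interaction in each case.

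In this fit the interaction has a larger standard error than either average, because it is a difference of differences. Its median standard error was 0.27 on the log2 scale, against 0.14 for each average. All contrasts share the error term of the fit, which also holds differences between sets in the TNF-a and knockdown effects. Those differences cancel within a set in the interaction, whose median SD over the 3 sets was 0.28. The intervals and p-values therefore do not measure the spread of the interaction between sets alone. The 95% interval of the interaction lay wholly within 1 log2 unit of 0 for 8358 genes (67.9%) and reached past it for 3952. The median half-width of the interval was 0.60 log2 units. An absent call is therefore no sign of equal responses, least of all for those 3952 genes. Interactions also repeated little between sets: across genes, Pearson's r was 0.066 between sets 1 and 2, 0.19 between sets 1 and 3 and 0.086 between sets 2 and 3 (12310 genes, which are not independent and share each set's 4 libraries). The interaction had 1 sign in all 3 sets for 1937 genes above 0 (15.7%) and 1934 below (15.7%).

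Genes that TNF-a changed on average moved in the same direction in shTon and PLKO cells, with slightly smaller median effects in shTon cells. Across all genes tested, the TNF-a effects in shTon and in PLKO cells, which share no library, had Pearson's r = 0.76 (12310 genes that share the 3 sets, given as a description). All 930 genes that rose and all 916 that fell on average had estimates of that direction in both kinds of cell, which the choice by the average favours. Among those that rose, the median log2 effect was 0.56 in shTon and 0.66 in PLKO cells, and 61.3% had the smaller estimate in shTon cells. Among those that fell, the median size of the fall was 0.58 in shTon and 0.67 in PLKO cells, and 65.3% fell less in shTon cells. The average weighs both vectors equally and so does not by itself favour a sign of the interaction.

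The sets did not share this slight difference. The share of risen genes with the smaller estimate in shTon cells was 43.0% in set 1, 71.5% in set 2 and 62.3% in set 3, and for fallen genes it was 43.2%, 81.6% and 53.3%. Set 1, whose library labelled shTon_TNF goes against its label for Nfat5, had most responses larger in shTon cells, and sets 2 and 3 had most of them smaller. Of the 236 genes that rose by more than 1 log2 unit, 119 had the smaller and 117 the larger estimate in shTon cells. The share with the smaller estimate was 25.8% in set 1, 59.7% in set 2 and 55.5% in set 3. Of the 59 that rose by more than 2 units, 23 had the smaller and 36 the larger estimate in shTon cells. By set the share with the smaller estimate was 23.7%, 64.4% and 49.2%, so among these largest rises only set 2 leaned towards smaller effects. Of the 187 that fell by more than 1 unit, 128 fell less and 59 fell more in shTon cells.

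**Figure D1:**
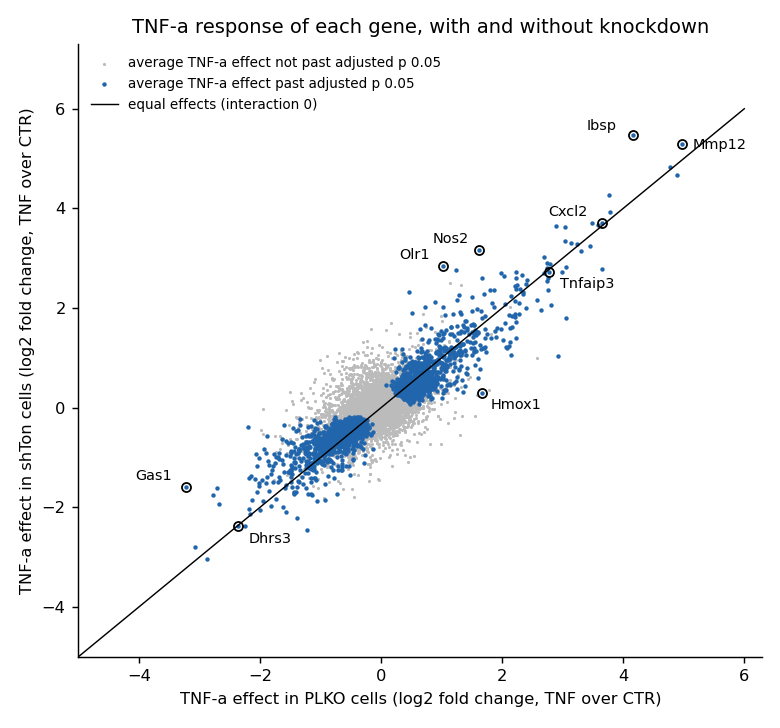
The log2 effect of TNF-a (TNF over CTR) is plotted for each of the 12310 genes in shTon cells (vertical) against PLKO cells (horizontal), with genes past the test for the average effect in blue and a line where both are equal. Genes scatter along the line (r = 0.76). Olr1 and Nos2 lie above it and Hmox1 below it, and 0 genes pass the test for the distance from the line.

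For Cxcl2 and Il6, inflammatory genes that the knockdown lowered, the fold response to TNF-a had similar estimates in shTon and PLKO cells. Their intervals were too wide to exclude differences of 1 log2 unit. Cxcl2, a chemokine that draws neutrophils, had 2482, 7256 and 1584 normalised reads in sets 1 to 3 of shTon_TNF and 504, 402 and 62.5 in shTon_CTR, against 7469, 39326 and 8614 in PLKO_TNF and 2436, 1431 and 366 in PLKO_CTR. Its levels were lower in shTon than in PLKO cells in every set, with and without TNF-a, and higher with TNF-a in every set of both kinds of cell. The log2 effect of TNF-a was 3.70 in shTon and 3.65 in PLKO cells, and the interaction was 0.054 (SE 0.79, 95% interval -1.69 to 1.80, unadjusted p = 0.947 in limma), with 0.68, -0.61 and 0.090 by set and -0.26 without set 1. The average knockdown effect was -2.18 (adjusted p = 0.00741 in limma). In reads, TNF-a added 1978, 6854 and 1521 in sets 1 to 3 of shTon cells and 5033, 37895 and 8248 in PLKO cells. The gain was thus smaller in shTon cells of each set, although the estimated folds over the sets were similar. The authors' deposited tables list a knockdown effect on Cxcl2 of -1.86 with TNF-a (adjusted p = 8.78e-16) and -1.88 without (adjusted p = 4.01e-22).

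Il6, the gene of a cytokine that drives the acute-phase response, had 400.1, 815 and 444 normalised reads in sets 1 to 3 of shTon_TNF and 190.3, 372 and 84.6 in shTon_CTR, against 1437, 3636 and 1518 in PLKO_TNF and 1187, 978 and 249 in PLKO_CTR. It was lower in shTon cells in each set under both treatments, with an average log2 knockdown effect of -1.89 (adjusted p = 0.00323 in limma). Its interaction was -0.066 (SE 0.54, 95% interval -1.26 to 1.13, unadjusted p = 0.905 in limma), with 0.79, -0.76 and -0.23 by set, above 0 in set 1 and below 0 in the others, and -0.50 without set 1 (unadjusted p = 0.256). The authors' deposited tables list -1.70 for the knockdown with TNF-a (adjusted p = 4.39e-15) and -1.49 without (adjusted p = 1.77e-09).

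Matrix protease genes also had interactions near 0, with intervals that mostly reach past 1 log2 unit. Mmp3, a stromelysin, had 74354, 123378 and 26781 normalised reads in sets 1 to 3 of shTon_TNF and 14153, 15332 and 4956 in shTon_CTR, against 172628, 199126 and 96994 in PLKO_TNF and 38892, 18449.7 and 15181 in PLKO_CTR. It was lower in shTon than in PLKO cells of each set under both treatments, while the groups overlapped across sets. Its TNF-a effect was 2.61 in shTon and 2.75 in PLKO cells, a difference of -0.14 (SE 0.47, 95% interval -1.18 to 0.90, unadjusted p = 0.770 in limma), and -0.34 without set 1. Mmp13, a collagenase, had 2.54 and 2.74 (interaction -0.19, 95% interval -0.85 to 0.47, -0.25 without set 1), and Mmp9, a gelatinase, 3.93 and 3.79 (interaction 0.15, 95% interval -1.39 to 1.69, 0.12 without set 1). The interaction of Mmp9 was 0.19, 0.18 and 0.072 in sets 1 to 3. All 3 genes rose with TNF-a on average (adjusted p = 0.000102, 4.66e-06 and 0.000120 in limma) and fell with the knockdown on average (log2 -1.18, -1.07 and -1.82, adjusted p = 0.0108, 0.00296 and 0.00941). The aggrecanase gene Adamts4 had an interaction of -0.42 (SE 0.48, -0.54 without set 1).

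A pair of feedback genes of NF-kB gave narrower intervals. Tnfaip3 encodes the ubiquitin-editing enzyme A20, which shuts NF-kB signalling off. It had 2132, 2543 and 2374 normalised reads in sets 1 to 3 of shTon_TNF and 366, 321 and 380.0 in shTon_CTR, against 2561, 2131 and 3133 in PLKO_TNF and 438, 295 and 405 in PLKO_CTR. TNF-a raised it about equally in every set of both kinds of cell (log2 2.54, 2.98 and 2.64 in shTon and 2.54, 2.85 and 2.95 in PLKO cells), and its interaction was -0.062 (SE 0.22, 95% interval -0.54 to 0.42, unadjusted p = 0.779 in limma). Nfkbia, the gene of the inhibitor IkB-alpha, had effects of 1.65 in shTon and 1.48 in PLKO cells and an interaction of 0.17 (95% interval -0.21 to 0.56). For these 2 genes a loss or gain of 1 log2 unit in the response lies outside the interval. Without set 1 the interactions were -0.092 and 0.24. Neither passed for the average knockdown effect (log2 -0.11 for Tnfaip3 and 0.11 for Nfkbia, adjusted p = 0.558 and 0.420 in limma).

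**Figure D2:**
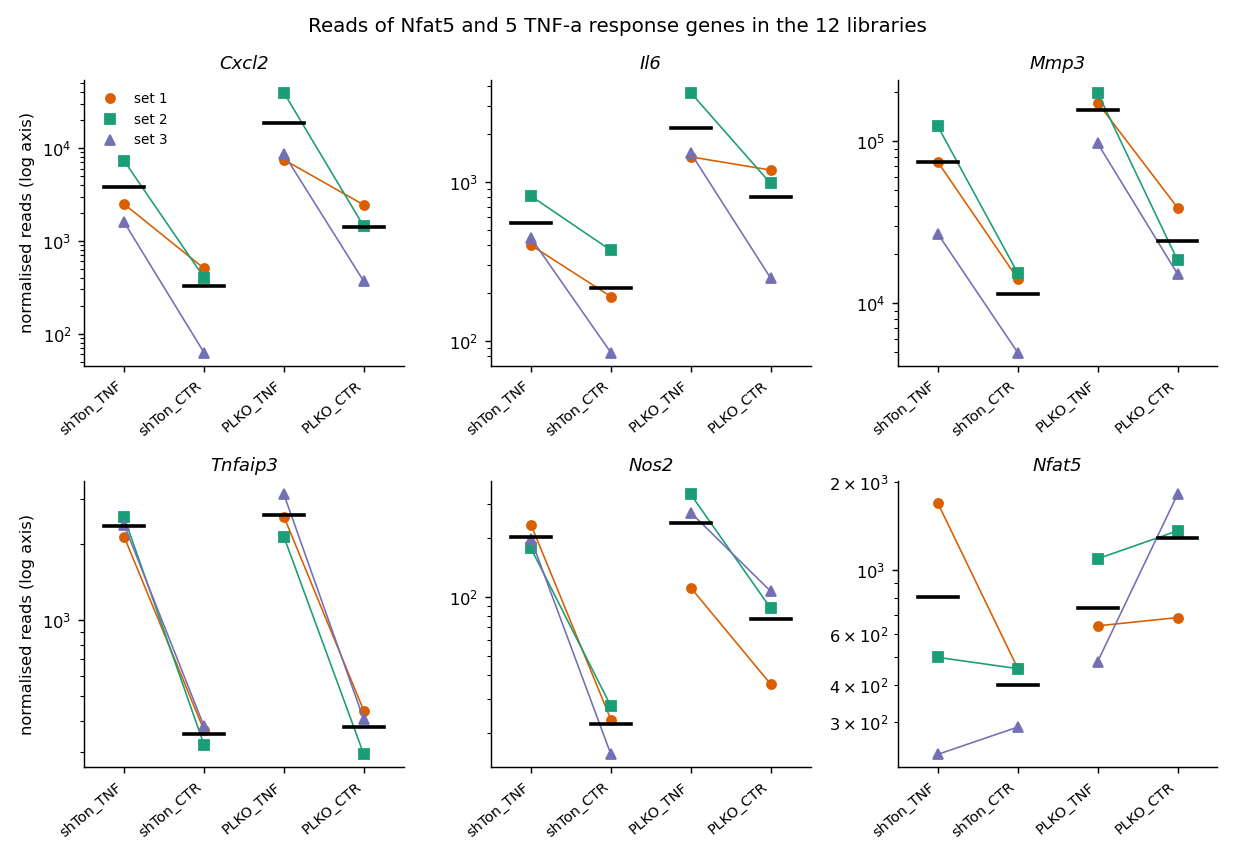
Normalised reads (log axis) of 6 genes are shown in each of the 12 libraries, with lines that join the treated and untreated library of 1 set and vector and black bars at group means. Cxcl2, Il6 and Mmp3 lie lower in shTon cells of each set, Tnfaip3 overlaps between vectors, Nos2 has the steeper lines in shTon cells, and Nfat5 shows the high shTon_TNF library of set 1.

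Ccl20, Ccl2, Cxcl1 and Cxcl3 also had similar estimates in both kinds of cell, while Ccl3, Ccl5 and others differed more, with wide intervals. Ccl3 fell with the knockdown on average (log2 -2.08, adjusted p = 0.00449 in limma). Its TNF-a effect was 2.79 in shTon and 3.65 in PLKO cells. The interaction of Ccl3 was -0.86 (SE 0.65), with 0.50, -2.39 and -0.69 by set and -1.59 without set 1. Ccl5, at a mean of 24.0 normalised reads, had 2.50 and 1.13 (interaction 1.37, SE 1.21, 1.69 without set 1). Ccl20, which draws lymphocytes, had TNF-a effects of 3.71 in shTon and 3.49 in PLKO cells (interaction 0.22, 95% interval -0.69 to 1.13, 0.14 without set 1), and the monocyte chemokine Ccl2 had 2.10 and 1.83 (interaction 0.27, 95% interval -0.61 to 1.15, 0.13 without set 1). Cxcl1 had an interaction of 0.15 (SE 0.49, 0.18 without set 1) and Cxcl3 0.33 (SE 0.59, 0.42 without set 1). Both genes and Cxcl2 are close relatives, so their split of reads may be uncertain, which was not measured. Ptgs2, the inducible prostaglandin synthase gene, had -0.41 (SE 0.57), but 0.71, -1.11 and -0.82 by set and -0.96 without set 1 (unadjusted p = 0.0566). The interleukin gene Il1b had 0 reads in the untreated libraries of set 3 and an interaction of -0.21 with an interval of -2.16 to 1.74, and -0.96 without set 1. The 3 largest average rises with TNF-a among genes with a mean of at least 50 were those of the protease gene Mmp12, the bone matrix gene Ibsp and the interleukin gene Il23a. Their interactions were 0.32, 1.30 and 0.048 with standard errors of 0.96, 0.97 and 0.88, and -0.31, 1.63 and -0.49 without set 1, so that the sign turned for Mmp12 and Il23a.

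Of 32 list medians, 12 kept their sign when each library or set was left out in turn (adhesion, antigen presentation, receptors, ERK feedback, TGF-beta and BMP, Wnt and Notch, unfolded protein, NRF2, and the NP, annulus, osteoblast and nervous tissue markers), and 20 did not. By list, chemokine genes lay above 0 by value more often than all genes did, and cytokine genes varied with the set. Of 10 tested CXC and CX3C chemokines, 0 passed and 10 were above 0 by value (background 50.2%), with a median of 0.32 beside 0.0015 over all genes. The set medians were 0.16, 0.055 and 0.46, the median without set 1 was 0.42, and 2 members were above 0 in all 3 sets. In this list 5 rose with TNF-a (7.55% of all genes) and 4 fell with the knockdown (7.12% of all genes) on average. Leaving out 1 library turned the list median to -0.20 (shTon_CTR of set 3), -0.026 (PLKO_CTR of set 1) or -0.025 (PLKO_TNF of set 1). The CX3C member Cx3cl1, fractalkine, had the smallest p, with an interaction of 0.69 (SE 0.45, unadjusted p = 0.150, 0.81 without set 1). Of 6 CC chemokines, 4 were above 0 (median 0.18, 0.044 without set 1, set medians 0.49, -0.16 and 0.22). Of 19 cytokines and colony-stimulating factors, 12 were above and 7 below 0 (median 0.067, set medians 0.26, -0.36 and 0.0013), and without set 1 the median was -0.24. In that list 11 rose and 1 fell with TNF-a on average (7.55% and 7.44% of all genes), and 7 fell with the knockdown (7.12%).

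Receptors and regulators gave small values of either sign. Of 22 cytokine and pattern receptors, 18 were above 0 (median 0.19, 0.32 without set 1, set medians 0.045, 0.27 and 0.32), and the bacterial sensor genes Nod1 and Cd14 had the smallest p, with 0.48 (SE 0.23, unadjusted p = 0.0577, 0.53 without set 1) and 0.68 (SE 0.32, unadjusted p = 0.0585, 0.84 without set 1). Of 22 NF-kB subunit and feedback genes, 16 rose with TNF-a on average (7.55% of all genes). In this list 13 had interactions above 0 (median 0.037, 0.073 without set 1, set medians 0.091, 0.11 and 0.14). The RNase gene Zc3h12a, which degrades cytokine messages, had 0.56 (SE 0.23, unadjusted p = 0.0299, 0.54 without set 1) and 0.61, 0.50 and 0.58 by set, and Tnfaip2 had 0.60 (SE 0.25, unadjusted p = 0.0366, 0.61 without set 1). Of 9 adhesion genes 6 were above 0 (median 0.19, 0.24 without set 1, set medians 0.29, 0.28 and -0.033). The integrin-associated gene Cd47 had 0.62 (SE 0.22, unadjusted p = 0.0182, 0.45 without set 1) and the selectin gene Selp 0.84 (SE 0.36, unadjusted p = 0.0380, 0.34 without set 1), which was 1.85, 0.98 and -0.30 by set.

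Nos2, the inducible nitric oxide synthase gene, had an unadjusted p under 0.05 for the interaction. It had 235, 178 and 198 normalised reads in sets 1 to 3 of shTon_TNF and 23.5, 27.6 and 15.6 in shTon_CTR, against 112, 336 and 271 in PLKO_TNF and 35.8, 87.7 and 107 in PLKO_CTR. The untreated shTon cells were lowest, and the treated groups of both vectors overlapped. The TNF-a effect was 3.26, 2.64 and 3.58 in sets 1 to 3 of shTon cells and 1.62, 1.93 and 1.33 in PLKO cells, larger in shTon cells of each set. The interaction was 1.54 (SE 0.57, 95% interval 0.28 to 2.80, unadjusted p = 0.0214 in limma), and 1.48 without set 1 (unadjusted p = 0.00680), short of the test over all genes in either case. The authors' deposited tables list a knockdown effect of -0.093 with TNF-a (adjusted p = 0.932) and -0.91 without (adjusted p = 0.0190). The list of inflammatory mediator enzymes that holds it had 11 of 19 above 0 (median 0.096, 0.0020 without set 1, set medians 0.18, 0.032 and -0.064).

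Olr1 had the smallest unadjusted p of all genes tested. It encodes the scavenger receptor LOX-1, which takes up oxidised low-density lipoprotein. Olr1 had 557, 2470.3 and 362 normalised reads in sets 1 to 3 of shTon_TNF and 65.9, 717 and 27.3 in shTon_CTR, against 198, 1346 and 169.9 in PLKO_TNF and 126, 689 and 61.4 in PLKO_CTR. Each treated library was higher than the untreated one of its set and vector, the groups overlapped across sets, and the step was larger in shTon cells of each set (3.06, 1.78 and 3.68, against 0.65, 0.96 and 1.45 in PLKO cells). The interaction was 1.82 (SE 0.42, 95% interval 0.88 to 2.76, unadjusted p = 0.00142 in limma), and 1.52 without set 1 (unadjusted p = 0.0255). The authors' deposited tables list a knockdown effect of 0.98 with TNF-a (adjusted p = 0.000234) and -0.42 without (adjusted p = 0.398).

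The other 9 genes at the upper end were of varied function and were picked by these same values. Tm4sf1, a tetraspanin-like membrane protein gene, had 69.4, 156 and 148 normalised reads in sets 1 to 3 of shTon_TNF and 106, 151 and 164 in shTon_CTR, against 40.8, 77.9 and 43.1 in PLKO_TNF and 112, 168 and 124 in PLKO_CTR. PLKO_TNF lay below PLKO_CTR with no overlap, while shTon_TNF and shTon_CTR overlapped, and its interaction was 1.11 (SE 0.32, 95% interval 0.39 to 1.82, unadjusted p = 0.00607 in limma), and 1.25 without set 1. Its effects were below 0 by value in set 1 and set 3 of shTon cells too (-0.61, 0.047 and -0.14). The actin-binding gene Synpo had 0.89 (SE 0.25, unadjusted p = 0.00523, 0.70 without set 1), the adhesion gene Flrt2 1.12 (SE 0.33, unadjusted p = 0.00571, 1.44 without set 1) and Tmem26 1.34 (SE 0.41, unadjusted p = 0.00796, 1.21 without set 1). Grem1, which encodes a secreted BMP antagonist, had 0.68 (SE 0.21, unadjusted p = 0.00934, 0.57 without set 1), with TNF-a effects of 0.13, -0.046 and 0.34 by set in shTon and -0.75, -0.33 and -0.53 in PLKO cells. The ubiquitin ligase gene Rnf26 had 0.76 (SE 0.24, unadjusted p = 0.0107, 0.63 without set 1), the glutathione peroxidase gene Gpx1 0.57 (SE 0.19, unadjusted p = 0.0109, 0.74 without set 1) and the nucleoside diphosphate kinase gene Nme3 0.99 (SE 0.32, unadjusted p = 0.0115, 1.24 without set 1). LOC685067, a gene with no role given in the tables, rose with TNF-a on average (log2 2.13) and had 0.94 (SE 0.30, unadjusted p = 0.0108, 0.81 without set 1).

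Among the genes named at the lower end, Hmox1 and Gclm belong to the antioxidant programme of the transcription factor NRF2. The others there are not on the NRF2 list, and the glutathione peroxidase gene Gpx1 was named at the upper end. NRF2 binds antioxidant response elements and switches on glutathione, thioredoxin and haem-degrading enzymes. Hmox1, haem oxygenase, had 2649, 1188 and 843 normalised reads in sets 1 to 3 of shTon_TNF and 1510.0, 1103 and 863 in shTon_CTR, against 5167, 3904 and 6541 in PLKO_TNF and 2653, 1354 and 1144 in PLKO_CTR. The TNF-a effect was 0.81, 0.11 and -0.033 in sets 1 to 3 of shTon cells and 0.96, 1.53 and 2.51 in PLKO cells. The 3 treated PLKO libraries were the highest of all 12. The interaction was -1.37 (SE 0.41, 95% interval -2.28 to -0.47, unadjusted p = 0.00677 in limma), with -0.15, -1.42 and -2.55 by set and -1.99 without set 1 (unadjusted p = 0.000847, adjusted p = 1.00 in limma). The authors' deposited tables list a knockdown effect of -1.43 with TNF-a (adjusted p = 1.82e-06) and -0.46 without (adjusted p = 0.0930).

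Of 22 tested genes of the NRF2 list, 22 had an interaction below 0 by value, beside 49.8% of all genes, and 0 passed the test. The list median was -0.32, beside 0.0015 over all genes, and the set medians were -0.11, -0.38 and -0.54. In 12 of the 22 all 3 sets were below 0, beside 15.7% of all genes, and 4 had an unadjusted p under 0.05, beside 0.755%. Without set 1 the median was -0.45, 22 of 22 were below 0 (48.8% of all genes) and 8 had an unadjusted p under 0.05 (0.811% of all genes), again with 0 past the adjusted threshold. Leaving out each library or set in turn kept the list median between -0.49 and -0.27. The median knockdown effect on these genes was -0.59 with TNF-a (22 of 22 below 0) and -0.15 without (17 of 22). The genes share libraries and regulation, so their signs are not independent of each other, and the list was chosen with earlier results of these data known.

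All 4 members with an unadjusted p under 0.05 were named from these measured values. Gclm, the modifier subunit of the enzyme that begins glutathione synthesis, had 615, 324 and 618 normalised reads in sets 1 to 3 of shTon_TNF and 489, 308 and 446 in shTon_CTR, against 1038, 581 and 943 in PLKO_TNF and 679.9, 292 and 341 in PLKO_CTR. Its interaction was -0.73 (SE 0.25, 95% interval -1.29 to -0.17, unadjusted p = 0.0158 in limma), with -0.28, -0.92 and -0.997 by set and -0.96 without set 1. All 3 treated PLKO libraries were above the treated shTon library of their set. Slc7a11, the cystine importer that feeds that synthesis, had 10054, 1730.0 and 145 normalised reads in sets 1 to 3 of shTon_TNF and 4154, 914 and 74.2 in shTon_CTR, against 20344, 6764 and 498 in PLKO_TNF and 10199, 945 and 80.1 in PLKO_CTR. Its level differs between sets by far more than between groups, so its steps are read within sets: the interaction was 0.28, -1.92 and -1.66 by set and -1.10 (SE 0.39, 95% interval -1.97 to -0.23, unadjusted p = 0.0176 in limma) over all, and -1.79 without set 1 (unadjusted p = 2.04e-05). Txnrd1, thioredoxin reductase, had -0.63 (SE 0.28, unadjusted p = 0.0442, -0.89 without set 1), with -0.12, -0.66 and -1.11 by set. For Hmox1, Gclm and Txnrd1 set 1 had the value nearest to 0, and for Slc7a11 it had the opposite sign.

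**Figure D3:**
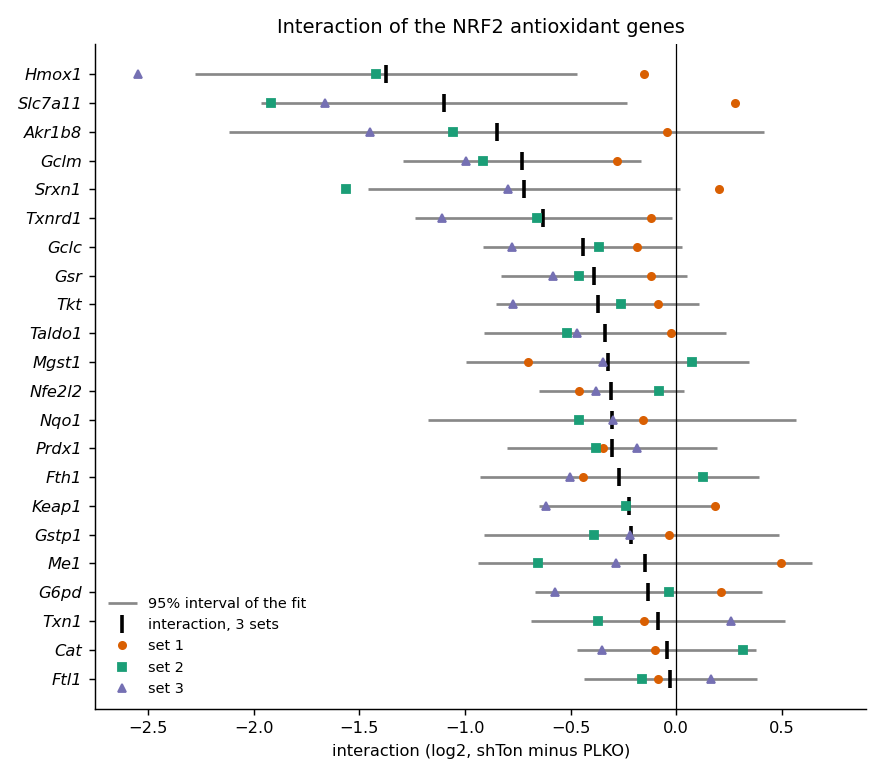
The interaction (log2, TNF-a effect in shTon minus that in PLKO cells) of the 22 tested NRF2 genes is shown with its 95% interval (line), its value over the 3 sets (bar) and each set (points). All 22 bars lie below 0, Hmox1 is lowest (-1.37), and set 1 (median -0.11) lies nearer to 0 than set 2 (-0.38) and set 3 (-0.54).

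The core of the antioxidant response element, TGACNNNGC, was looked for on both strands of the 250 bases before the annotated starts of the list's genes. RefSeq promoters (build GRCr8) matched 17 of the 22 genes by symbol, and 5 held a match in at least 1 entry. Of all 33469 promoter entries 10.1% held a match, a share counted by entry and not by gene. The matches are shown with 16 bases on each side, 5′ to 3′ on the strand that carries the match, with the match in capitals, because they are the sequence through which NRF2 is known to act:
Gclm: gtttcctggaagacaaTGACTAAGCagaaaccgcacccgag
Txnrd1: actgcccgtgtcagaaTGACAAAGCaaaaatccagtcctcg
Prdx1: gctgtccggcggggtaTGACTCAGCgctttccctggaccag
Gstp1: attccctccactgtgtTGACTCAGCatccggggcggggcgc
Me1: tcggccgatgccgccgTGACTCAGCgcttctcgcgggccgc
They lie at chr2:213031947-213031987 (minus strand), chr7:22755958-22755998 (plus strand), chr5:135383755-135383795 (minus strand), chr1:210769742-210769782 (minus strand) and chr8:96540387-96540427 (minus strand), and begin 172, 78, 135, 61 and 167 bases before the start. The matches of Prdx1, Gstp1 and Me1 also hold TGACTCA, the core letters of the AP-1 motif. Txnrd1 has 2 entries in the table, and 1 of them holds the match. The interactions of Prdx1, a peroxiredoxin, of the glutathione transferase gene Gstp1 and of the malic enzyme gene Me1 were -0.30, -0.21 and -0.15, and -0.28, -0.30 and -0.47 without set 1. The median interaction was -0.30 in the 5 genes with a match and -0.33 in the 12 with a promoter and no match. A match is no evidence of binding, and enhancers farther away were not searched.

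The other genes at the lower end were picked by these same values. Tfrc, the transferrin receptor that imports iron, had 2953, 1112 and 595 normalised reads in sets 1 to 3 of shTon_TNF and 2607, 1011 and 504 in shTon_CTR, against 3984, 2038 and 1145 in PLKO_TNF and 3046, 827 and 461 in PLKO_CTR. Its TNF-a effect was 0.18, 0.14 and 0.24 in sets 1 to 3 of shTon cells and 0.39, 1.30 and 1.31 in PLKO cells, and its interaction was -0.81 (SE 0.23, 95% interval -1.33 to -0.30, unadjusted p = 0.00532 in limma). Without set 1 it was -1.12 (SE 0.19, unadjusted p = 0.000374, adjusted p = 1.00 in limma), still short of the threshold. The rRNA processing genes Las1l and Rrp12 had -0.62 (SE 0.18, unadjusted p = 0.00629, -0.51 without set 1) and -0.64 (SE 0.21, unadjusted p = 0.0107, -0.81 without set 1), the rRNA-modifying Rrp8 -0.55 (SE 0.20, unadjusted p = 0.0186, -0.58 without set 1) and the nucleolar gene Pinx1 -0.59 (SE 0.21, unadjusted p = 0.0181, -0.64 without set 1), each with 1 sign in all sets, as the choice required. The splicing factor gene Cdc5l had -0.41 (SE 0.14, unadjusted p = 0.0138, -0.46 without set 1), the adenylate kinase gene Ak4 -0.40 (SE 0.14, unadjusted p = 0.0168, -0.32 without set 1) and the kinase gene Pdik1l -0.70 (SE 0.19, unadjusted p = 0.00451, -0.60 without set 1). No list of ribosome assembly genes was tested.

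**Figure D4:**
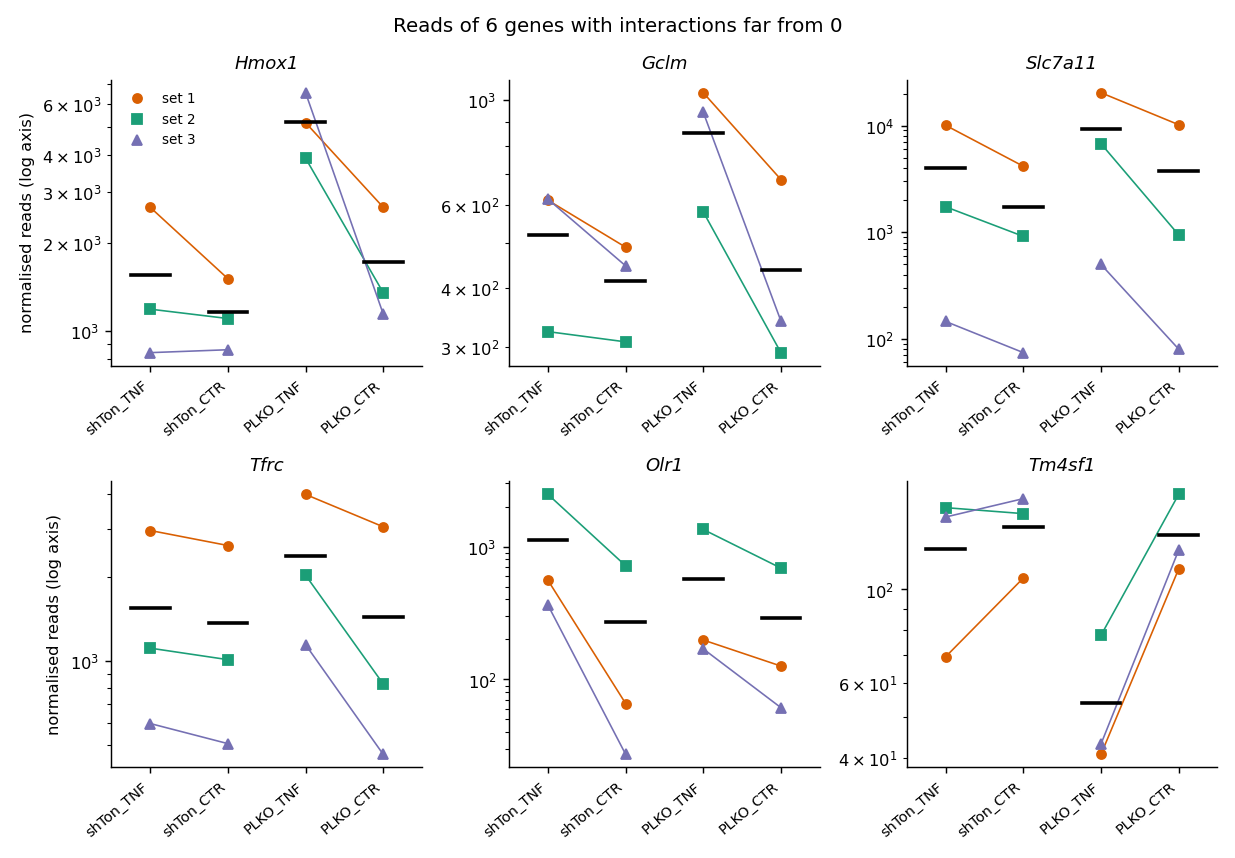
Normalised reads (log axis) of 6 genes with interactions far from 0 are shown in the 12 libraries, with lines that join the treated and untreated library of 1 set and vector and black bars at group means. Hmox1, Gclm and Tfrc have the steeper lines in PLKO cells in each set and Slc7a11 in sets 2 and 3, Olr1 has them in shTon cells, and Tm4sf1 is low in PLKO_TNF.

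The osmoprotective targets of TonEBP showed no interaction past the test. Of 10 tested, 4 were above and 6 below 0 (median -0.13, -0.22 without set 1, set medians -0.019, 0.035 and -0.28). The aldose reductase gene Akr1b1, which makes the osmolyte sorbitol, had -0.38 (SE 0.30, unadjusted p = 0.223, -0.63 without set 1). The small heat-shock gene Hspb1 had 0.23 (SE 0.16, unadjusted p = 0.186, 0.32 without set 1). On average over both vectors 2 of these genes rose and 2 fell with TNF-a (7.55% and 7.44% of all genes), and over both treatments 2 fell with the knockdown (7.12% of all genes).

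More fibrillar matrix genes lay above 0 than below, by value. Of 30 fibrillar matrix genes 21 were above 0 and 0 passed (median 0.17, 0.089 without set 1, set medians 0.23, 0.40 and -0.0017). Without the library shTon_TNF of set 1 the median was -0.026. Their TNF-a effects had a median of -0.17 in shTon and -0.35 in PLKO cells. Bgn, the small proteoglycan biglycan, had 16017, 11103 and 11614 normalised reads in sets 1 to 3 of shTon_TNF and 4795, 10683 and 9438 in shTon_CTR, against 5065, 11863 and 7187 in PLKO_TNF and 5264, 15565 and 17646 in PLKO_CTR. shTon_TNF lay above shTon_CTR without overlap, PLKO_TNF and PLKO_CTR overlapped, and within sets the TNF-a effect was 1.74, 0.056 and 0.30 in shTon and -0.056, -0.39 and -1.30 in PLKO cells. Its interaction was 1.28 (SE 0.51, 95% interval 0.14 to 2.42, unadjusted p = 0.0311 in limma), and 1.02 without set 1. The fibrillar collagen gene Col3a1 had 0.71 (SE 0.38, unadjusted p = 0.0873, 0.90 without set 1). Of 26 metalloproteinase, ADAMTS and inhibitor genes 16 were above 0 (median 0.14, 0.066 without set 1, set medians 0.20, 0.34 and -0.23), with 0.42 (SE 0.20, unadjusted p = 0.0608, 0.41 without set 1) for the inhibitor gene Timp2 and -0.51 (SE 0.26, unadjusted p = 0.0804, -0.74 without set 1) for the protease gene Adamts1. Of 13 cartilage and NP matrix genes 6 were above 0 (median -0.069, 0.10 without set 1, set medians -0.33, 0.31 and -0.42, from -0.21 to 0.21 when each library or set is left out). The growth-arrest gene Gas1, among the largest falls with TNF-a, had a smaller fall by value in each set of shTon cells (-1.61, -2.48 and -0.70, against -2.56, -3.46 and -3.67 in PLKO cells), with 1.63 (SE 0.79, unadjusted p = 0.0636, 1.97 without set 1), and the retinoid enzyme gene Dhrs3, another of these, had -0.024 (SE 0.50, -0.046 without set 1).

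Cell type markers were read for shifts in the make-up of the cultures. Of 23 skeletal muscle markers 10 were above and 13 below 0, with set medians of 0.23, -0.66 and 0, and medians of -0.10 over the 3 sets and -0.35 without set 1. In set 2 their summed level was 22942 normalised reads in shTon_TNF and 41402 in shTon_CTR, against 23996 in PLKO_TNF and 27479 in PLKO_CTR, and in set 1 it was 112542 in shTon_TNF and 132424 in shTon_CTR, against 58117 in PLKO_TNF and 75401 in PLKO_CTR, so muscle transcripts differed between the groups of both sets. Their part in the interactions was not tested. NP and notochord markers had a median of 0.21 (0.15 without set 1, 8 of 11 above 0), annulus and tendon markers 0.52 (0.39 without set 1, 5 of 8), smooth muscle and contractile markers -0.15 (-0.13 without set 1, 1 of 11) and osteoblast and osteoclast markers 0.46 (0.74 without set 1, 5 of 6). In the last list Runx2, a bone transcription factor gene, had 1.56 (SE 0.58, unadjusted p = 0.0208, 1.32 without set 1), with 2.05, 0.22 and 2.43 by set. Of the 2 macrophage and leukocyte markers tested, Cd68 had -0.30 (SE 0.53, -0.37 without set 1). Cd14 went the other way, with 0.68 (SE 0.32, 0.84 without set 1) and 0.35, 0.75 and 0.94 by set. The 3 endothelial, 3 adipocyte and 4 nervous tissue markers tested had medians of -0.50, -0.32 and -0.20, with 0 past the test. When each library or set was left out, these ran from -0.67 to 0.32, from -0.63 to 0.030 and from -0.38 to -0.094.

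In the lists of stress, signalling and growth genes 0 genes passed the test. Of 30 unfolded protein and ATF4 response genes 25 were below 0, 13 of them in all 3 sets, beside 15.7% of all genes (median -0.18, -0.16 without set 1, set medians -0.16, -0.28 and -0.060). Ddit4 had the smallest p of this list and went the other way, with 0.77 (SE 0.40, unadjusted p = 0.0794 in limma, 0.65 without set 1). Hspa5, the main chaperone of the endoplasmic reticulum, had -0.38 (SE 0.22, unadjusted p = 0.118, -0.38 without set 1). Of 40 DNA replication and mitosis genes 28 were below 0 (median -0.12, -0.17 without set 1, set medians 0.052, -0.37 and -0.070). Of 18 ERK feedback genes 14 were above 0 (median 0.28, 0.23 without set 1, set medians 0.54, 0.061 and 0.31), as Spred2, an inhibitor of ERK signalling, was (0.78, SE 0.35, unadjusted p = 0.0487, 0.67 without set 1). Phlda1, with the smallest p of this list, had 0.92 (SE 0.41, unadjusted p = 0.0465 in limma). Its values were 1.95, -0.29 and 1.11 by set and 0.41 without set 1. Of 26 TGF-beta and BMP genes 20 were above 0 (median 0.15, 0.15 without set 1, set medians 0.24, 0.24 and -0.011), among them the receptor gene Tgfbr2 (0.52, SE 0.18, unadjusted p = 0.0157, 0.44 without set 1). Of 18 antigen presentation genes 12 were above 0 (median 0.18, 0.36 without set 1, set medians 0.14, 0.19 and 0.32), and of 25 interferon-response genes 12 (median -0.013, 0.22 without set 1, set medians -0.12, 0.10 and 0.35). The guanylate-binding gene Gbp2 had 0.48 (SE 0.21, unadjusted p = 0.0452, 0.40 without set 1).

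The remaining lists had medians of 0.14 (Wnt and Notch, 0.078 without set 1, 17 of 24 above 0) and 0.017 (AP-1 and early growth response, -0.061 without set 1, 11 of 19). Sterol and fatty acid synthesis had -0.014 (-0.00052 without set 1, 11 of 25) and glycolysis and hypoxia targets -0.032 (-0.0019 without set 1, 11 of 30). The mitochondrially encoded genes had 0.37 (0.27 without set 1, 7 of 12), from -0.044 to 0.73 when each library or set was left out, while the cytochrome oxidase gene Mt-co1 had -0.61 (SE 0.34, -0.68 without set 1).

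**Figure D5:**
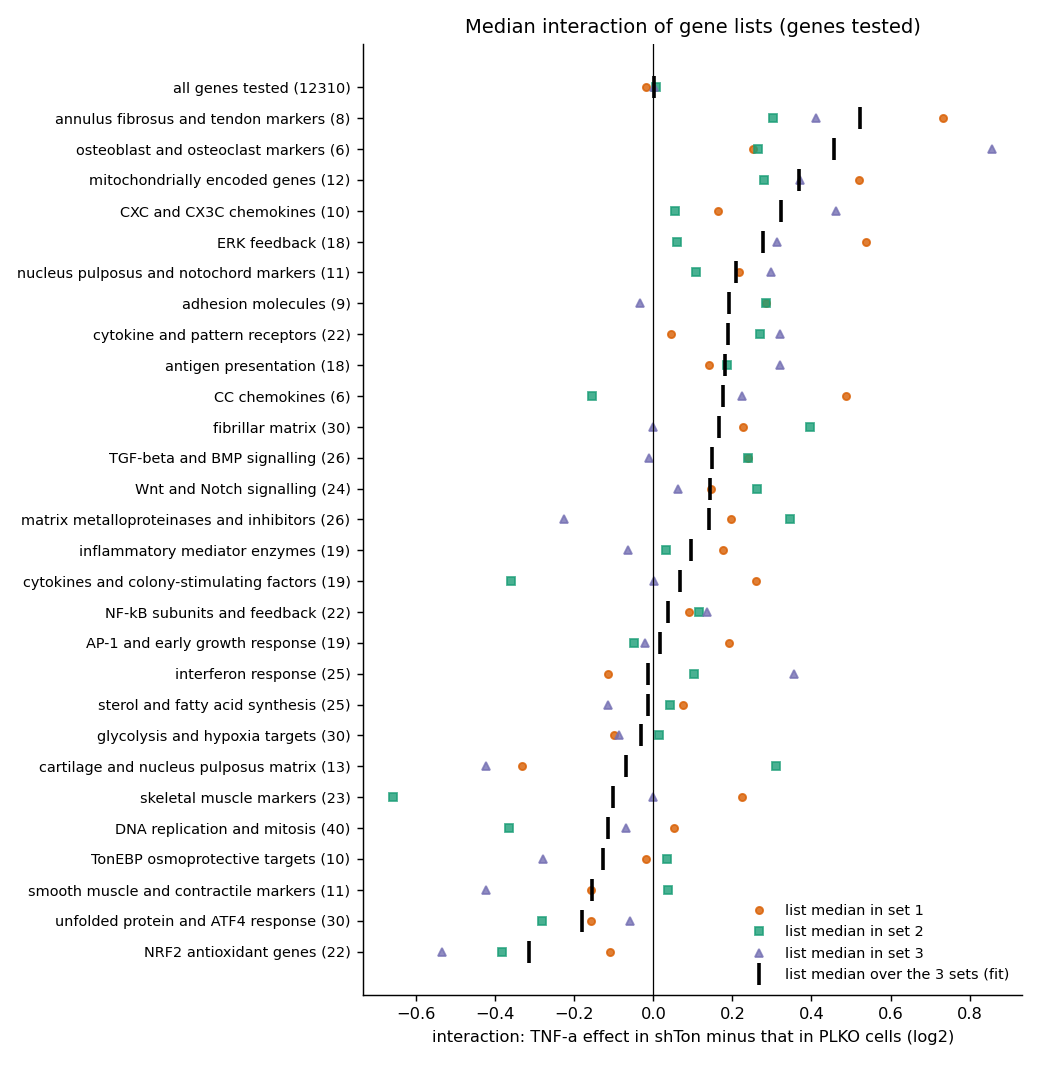
The median interaction (log2, TNF-a effect in shTon minus that in PLKO cells) is shown for each gene list with at least 5 tested genes (number in brackets) and for all genes, over the 3 sets (bar) and in each set (points). The NRF2 list is lowest (-0.32), with all set medians below 0, and the median of all genes is 0.0015.

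Genes that TNF-a moved in opposite directions were few. In 80 genes (0.65%) the TNF-a effect was above 0 in all 3 sets of shTon cells and below 0 in all 3 of PLKO cells, and in 109 (0.885%) it was the other way round, by value and with 0 past the interaction test. Read from the knockdown side, the 785 genes that rose with the knockdown on average had a median effect of 0.68 with TNF-a and 0.56 without. The 876 that fell had a median fall of 0.59 with TNF-a and 0.54 without.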

How the data were processed

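RNA-seq of 12 libraries (4 groups, sets 1 to 3) was analysed from 3 tables of 6 libraries and 2 groups each. Per the submitters' processing notes, the authors used Novoalign 2.08.01, build rn5 and DESeq2. The signal columns the authors deposited are counts divided by size factors. Dividing each by its smallest value above 0 gave whole reads for 100% of values (tolerance 0.001). Each table also carries the authors' deposited log2 fold change and adjusted p-value between its 2 groups, named as theirs where used. Those log2 values need not be on the scale of the joint fit used here. For the TNF-a effect on Cxcl2 in PLKO cells the deposited value was 1.03, against 3.65 in the joint fit. No label says whether counting used strand.

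The recovered reads of 12899 shared genes were scaled together by median ratios (DESeq2 1.42.0) and called normalised reads. For 12310 genes with a mean of at least 10, log2(value + 1), on which folds of low genes are understated, was fitted in limma 3.58.1 with group and set (empirical Bayes with trend, Benjamini-Hochberg over all genes, threshold 0.05). The p-values are two-sided, and a p given without "adjusted" is unadjusted. The pairing follows the set numbers in the library titles. Same-set libraries deviated from group means together (r = 0.61 to 0.89 over 18 pairs, against -0.74 to 0.18 over 36 pairs of different sets). Deviations from a mean of 3 libraries sum to 0, which by itself favours lower r between different sets. edgeR 4.0.16 and DESeq2, other pseudocounts, filters and scalings, no block and left-out libraries were alternatives. The calculations were run on simulated reads with known interactions, as a check of the code. Those reads had no differences between sets in the TNF-a or knockdown effect, so they do not show the power of the test here.

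The members and lists were chosen with earlier results of these data known. Named were the 10 genes in each direction with the smallest unadjusted p among those with 1 sign in all sets and a mean of at least 50. To these were added some of the 10 largest average TNF-a changes in each direction. Of the 2 members of each list with the smallest p, some are named and others are not. A fixed set (Nfat5 and inflammatory, protease and NF-kB feedback genes) was named as well. Slc7a11, Txnrd1, Prdx1, Gstp1 and Me1 were added after their values were seen. 1 gene and the list that held it are not reported here.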

Additional observations from a re-analysis of the deposited data

How the results depend on the processing

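The interaction passed 0 genes in limma and under all 24 alternatives run, edgeR and DESeq2 among them, with 29 (no block) to 698 (without PLKO_CTR of set 1) genes at an unadjusted p under 0.05. Without the replicate block the average TNF-a effect passed 167 genes and the average knockdown effect 0. Over fits that leave out a set or a library these counts ran from 162 to 2396 and from 0 to 1911. A fall by over 1.5 times came with sets 2 and 3 left out, for TNF-a also without shTon_TNF, shTon_CTR, PLKO_TNF or PLKO_CTR of set 2, shTon_CTR of set 1 or PLKO_CTR of set 3 (975 to 1174 genes), and for the knockdown without shTon_TNF, shTon_CTR or PLKO_TNF of set 2 or shTon_CTR, PLKO_TNF or PLKO_CTR of set 3 (827 to 1062).

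Of 735 values of list medians under alternatives (32 lists), 72 moved by more than the SD of the 3 set medians, and 20 of the 32 lists turned sign in at least 1 fit that leaves out a set or library. Of 66 named genes (Ccl3, Ccl5, Ddit4 and Phlda1 not among them), 47 kept the sign of the interaction in every fit. The sign turned in edgeR for Cxcl2 (-0.088), Mmp9 (-0.13), Il6 (0.048), Dhrs3 (0.17) and Il1b (0.89), and in DESeq2 for the same 5 (-0.088 for Cxcl2, -0.14 for Mmp9, 0.045 for Il6, 0.096 for Dhrs3 and 0.94 for Il1b). It also turned with a pseudocount of 0.1 for Il1b (0.12) and of 5 for Il23a (-0.092) and Dhrs3 (0.0025). Leaving out a set or library moved Cxcl2 between -0.71 and 0.61, Il6 between -0.62 and 0.35, Il1b between -1.02 and 0.39, Il23a between -0.73 and 0.79 and Cxcl1 between -0.21 and 0.52. Cxcl3 ran from -0.22 to 0.84, Ccl2 from -0.034 to 0.52, Ccl20 from -0.18 to 0.56, Ptgs2 from -1.03 to 0.029 and Tnfaip3 from -0.25 to 0.065. Among proteases, Mmp3 ran from -0.51 to 0.32, Mmp9 from -0.53 to 0.85, Mmp12 from -0.52 to 1.12, Mmp13 from -0.43 to 0.058 and Adamts4 from -0.83 to 0.092. Dhrs3 ran from -0.31 to 0.44, Cd68 from -0.85 to 0.33, Gstp1 from -0.43 to 0.0059 and Me1 from -0.47 to 0.10. The cause was not tested.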
